A study of Mus musculus with 10 samples.

Results

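Epidermal differentiation is driven by a small set of transcription factors, and 9 of their genes are described here by the p63 binding sites in and around them: Zfp750, Klf4, Klf5, Grhl1, Grhl2, Grhl3, Ovol1, Prdm1 and Maf. Binding sites were taken as the peaks of 1 deposited list for mouse keratinocytes, and a peak was assigned to a gene when any base of it lay inside the gene or within 50 kb of either end. This gave 22 of the 8451 peaks in the list, at 9 of 21779 annotated protein-coding genes. No peak was assigned to more than 1 of the 9 genes.

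The list came from chromatin immunoprecipitation with sequencing (ChIP-seq) of p63, with antibody 4A4, in MK1 and MK2, which the submitters call similar keratinocyte lines. There was 1 p63 library per line. The series also holds 2 libraries each of H3K4me1, H3K4me3, H3K27ac and input from the same lines, which were not analysed here. No treatment, genotype, strain or animal age is given for either line in the labels. The list gives 1 set of positions for both lines together, with no height, score or read count. Values per library, a spread between MK1 and MK2 and a read depth can therefore not be given, and where no peak is listed, binding may be absent or may have gone undetected. Nothing in these data measures expression, so neither the keratinocyte identity of the lines nor the activity of the 9 genes could be checked. A peak near a gene does not show that p63 controls it.

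p63 is the p53-family factor that keeps the basal layer of stratified epithelia, and keratinocytes that leave this layer switch on a second tier of factors. ZNF750, the human counterpart of Zfp750, is known in human keratinocytes as a p63 target that promotes terminal differentiation in part through KLF4. The grainyhead-like factors Grhl1, Grhl2 and Grhl3 act on cell adhesion and barrier genes. Klf4, Ovol1, Prdm1 and Maf are further regulators of epidermal differentiation, while Klf5 is a Krüppel-like factor of proliferating epithelial cells.

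Sequence could be shown where a RefSeq window of 300 bases around an annotated gene start, from 250 bases before to 50 bases after it, lay at or beside one of the 22 peaks. Only 4 of the 9 genes had such a window: Klf4, Grhl1, Grhl3 and Prdm1. Overlap with the starts of Zfp750, Klf5, Grhl2, Ovol1 and Maf could therefore not be counted. Of the 22 peaks, 1 (4.55%) overlapped a window of any gene, beside 3.63% of all peaks in the list. This was the only peak of Ovol1, and the window was that of Ap5b1, the neighbouring gene, which encodes a subunit of an adaptor protein complex. Grhl3 is shown because its own start had a peak on either side of it. Capitals mark matches to the core of the p53-family motif, searched as 2 copies of CNNG with 6 bases between them, a pattern that reads the same on both strands. Matches can overlap each other. Both windows are from the build GRCm38.p6, which has the chromosome coordinates of mm10.
Ap5b1 start, chr19:5567774-5568073, plus strand: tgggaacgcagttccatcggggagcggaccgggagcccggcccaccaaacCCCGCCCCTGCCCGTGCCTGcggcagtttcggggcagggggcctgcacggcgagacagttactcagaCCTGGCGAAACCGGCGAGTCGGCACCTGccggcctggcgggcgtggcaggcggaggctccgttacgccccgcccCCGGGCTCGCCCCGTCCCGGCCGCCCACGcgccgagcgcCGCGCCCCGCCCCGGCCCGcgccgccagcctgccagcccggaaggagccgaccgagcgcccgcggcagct
Grhl3 start, chr4:135573583-135573882, minus strand: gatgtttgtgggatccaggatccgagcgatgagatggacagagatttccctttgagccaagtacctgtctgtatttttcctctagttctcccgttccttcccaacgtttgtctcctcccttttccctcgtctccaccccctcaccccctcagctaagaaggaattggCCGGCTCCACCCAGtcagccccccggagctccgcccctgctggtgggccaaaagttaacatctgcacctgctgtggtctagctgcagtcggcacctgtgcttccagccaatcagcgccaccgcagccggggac

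The peak of Ovol1 covered 298 of the 300 bases of the Ap5b1 window, which are 83.7% of that peak, and its other 58 bases lay below the window. The Ap5b1 window held 9 core matches, a number reached by 1.31% of the 32851 windows in the table, and its GC content was 78.7%, against a median of 52.7% over all windows. The Grhl3 window held 1 core match, and 70.2% of all windows held at least 1. So short a pattern is common, and the part of base composition in its count was not tested. Measured instead against the full 20-base p53-family consensus, the best site of the Ap5b1 window had 6 mismatches and that of the Grhl3 window 5. At most 6 mismatches were found in 98.5% of all windows and at most 5 in 76.6%, so neither window had an unusually close match. Among the 353 windows overlapped by a peak, like that of Ap5b1, the shares were 99.4% and 88.1%. Most of those windows thus had a closer match than the Ap5b1 window. A match is not a shown binding site, and no sequence was read for the other 21 peaks.

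Each of the 9 genes had at least 1 peak, while 40.8% of all protein-coding genes did by the same rule. The genes nevertheless differed among themselves. Grhl2 had 6 peaks, Zfp750 had 5 and Grhl3 had 3, which makes 3 of 9 genes with at least 3, beside 9.73% of all protein-coding genes. Klf5 and Grhl1 had 2 peaks each, and Klf4, Ovol1, Prdm1 and Maf had 1 each. The median was 2 peaks per gene for the 9 genes and 0 for all protein-coding genes. At least 6 peaks, the number at Grhl2, were found at 1.03% of all protein-coding genes, and at least 5, the number at Zfp750, at 2.15%. Windows were not equally long: they spanned 103.6 to 230.7 kb for the 9 genes, with a median of 114.7 kb, against a median of 117.2 kb for all protein-coding genes. Per 100 kb of window, Zfp750 was the densest of the 9 with 4.61 peaks, a density reached by 0.629% of all protein-coding genes. Grhl2 followed with 2.60 and Grhl3 with 2.28, and Prdm1 was last with 0.523. The order of Zfp750 and Grhl2 thus depended on whether window length was taken into account. By count alone, Grhl2 was not below Zfp750 at any distance allowed, but the lead was lost within 25 kb. There Grhl2, Zfp750 and Grhl3 had 3 peaks each. Within 10 kb Grhl2 had 3 and Zfp750 and Grhl3 had 2 each. Within 100 kb Grhl2 had 8, Zfp750 had 7 and Grhl3 had 3.

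**Figure D1:**
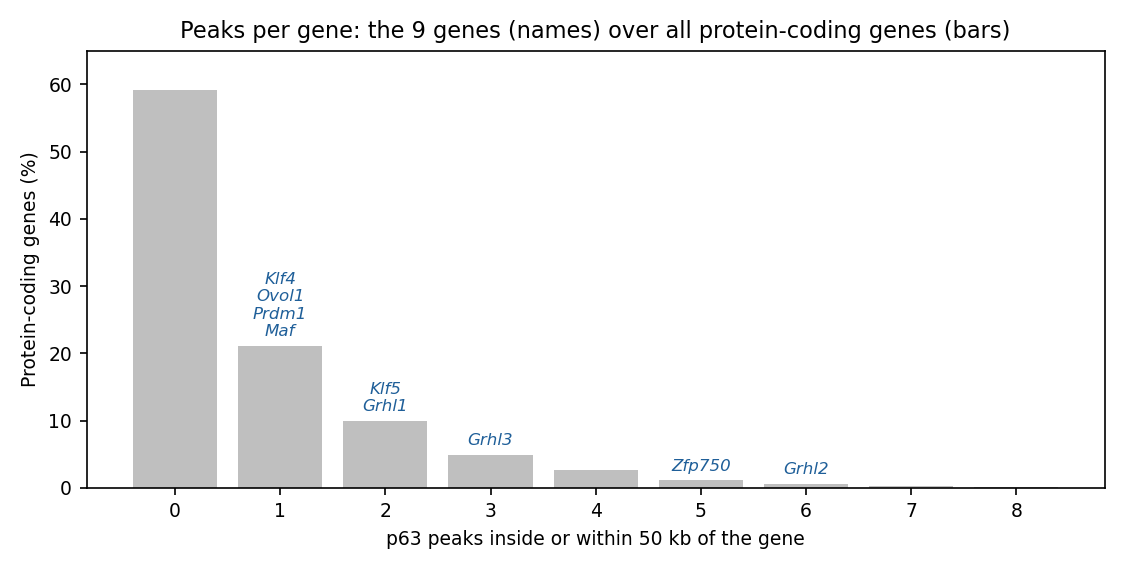
Share of all protein-coding genes (bars, percent of 21779) by the number of p63 peaks inside or within 50 kb of the gene, with the 9 genes named above the bar of their own count. The 27 genes with 9 or more peaks are beyond the axis; Zfp750 and Grhl2 stand in the sparse upper end at 5 and 6 peaks, and 4 of the 9 genes stand at 1.

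**Figure D2:**
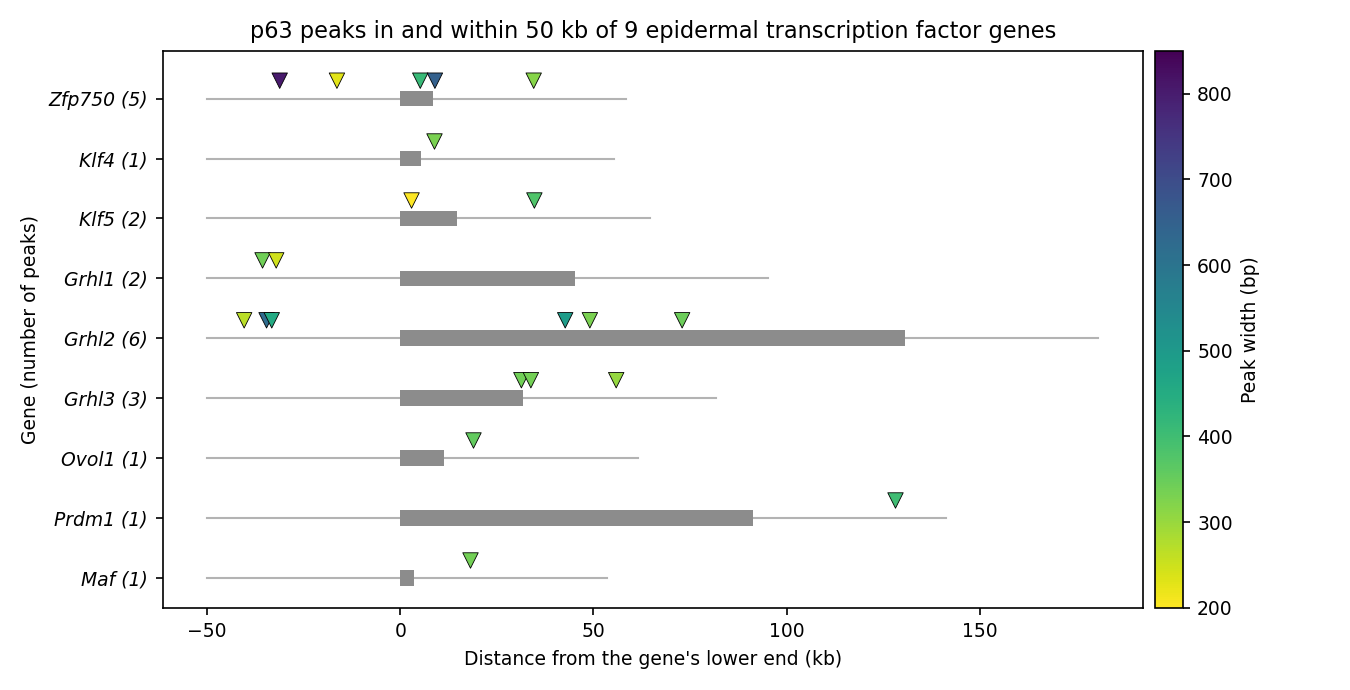
Position of the 22 p63 peaks (triangles, coloured by width in bp) relative to the lower end of each of the 9 genes, in kb, with the gene body as a grey bar and the window of 50 kb on either side as a line. Positions run with the chromosome, not with transcription. Of the 22 peaks, 6 lie inside the gene, 7 below it and 9 above it.

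The map of the 22 peaks shows that most lay outside the gene they were assigned to. A total of 6 had their midpoint inside it (27.3%, 95% Wilson interval 13.2 to 48.2, which covers counting error only). These were 3 in Grhl2 and 1 each in Zfp750, Klf5 and Grhl3. Another 7 peaks lay below the lower end of their gene, meaning at smaller coordinates, and 9 lay above the upper end. The 16 peaks outside gene bodies had midpoints 0.598 to 40.424 kb from the gene, with a median of 25.16 kb. Counting other genes as hosts too, 13 of 22 peaks (59.1%, interval 38.7 to 76.7) lay inside some protein-coding gene, close to the 53.3% of the whole list. The nearest protein-coding gene, by distance to either end, was the assigned one for 18 of 22 peaks. The exceptions were both peaks of Grhl1, the peak of Ovol1 and the lowest peak of Zfp750.

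Zfp750, which encodes a zinc finger driver of terminal differentiation, is 8.4 kb long and lies wholly within Tbcd, a tubulin folding cofactor gene of 165.2 kb. Its 5 peaks spread over 66.32 kb, and all of them also lay inside Tbcd. The peak at chr11:121519615-121520264, 650 bp wide, had its midpoint 0.598 kb above the upper end of Zfp750. A second peak, chr11:121515939-121516349, lay inside the gene at 61.8% of its length from the lower end and 3.796 kb from the first. These 2 peaks formed the pair closest to the gene.
The remaining 3 peaks flanked it at larger distances. One at chr11:121494459-121494687 was 16.403 kb below the gene and, at 229 bp, was among the narrower peaks of the list. One at chr11:121545352-121545670 was 26.169 kb above it. The widest of all 22 peaks, 806 bp at chr11:121479351-121480156, was 31.222 kb below Zfp750 but 27.762 kb from an end of Tbcd, which made Tbcd its nearest gene. Only 81 of the 8451 peaks (0.958%) were as wide. The Zfp750 locus thus held 2 of the 3 widest peaks of the 22.

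Klf4, a Krüppel-like factor needed for the skin barrier in mice, had 1 peak of 332 bp at chr4:55535711-55536042. RefSeq places the start of Klf4 at its upper end, on the minus strand, so the peak lay upstream, with its midpoint 3.402 kb from the start. It also lay inside Gm12506, a long non-coding RNA gene that starts at position 55532710, just above Klf4, on the plus strand. No other protein-coding gene overlapped the window of Klf4. The nearest other peak of the list was 178.65 kb away, so the Klf4 peak stood alone.

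Klf5, its paralog of the basal and proliferating compartment, had 2 peaks. The one inside the gene, at chr14:99301507-99301707, lay 2.916 kb from the lower end and was 201 bp wide, the narrowest of the 22; 92.2% of all peaks were at least that wide. The other, 378 bp at chr14:99333219-99333596, lay 19.996 kb above the gene. The pair was 31.8 kb apart, and neither had a closer neighbour.

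The grainyhead-like family held 11 of the 22 peaks, distributed unequally over its 3 genes. Grhl3, which is needed for barrier formation in mice, had its peaks at and above its start. RefSeq puts that start at the upper end on the minus strand. The peak at chr4:135573064-135573405 lay just downstream, with its nearer edge 227 bp and its midpoint 0.398 kb from the start. The peak at chr4:135575527-135575865 lay 2.064 kb upstream, inside the long non-coding RNA gene Gm30888. The third, chr4:135597632-135597934, lay 24.151 kb upstream. Widths were nearly equal at 342, 339 and 303 bp. Among the 9 genes, Grhl3 had the peak closest to a gene end.

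Grhl2, which acts on epithelial adhesion genes, is the longest of the 9 genes at 130.7 kb, and its peaks fell into 2 groups of 3. The lower group lay 33.276 to 40.424 kb below the gene. It comprised a 268 bp peak at chr15:37192263-37192530, a 622 bp peak at chr15:37197886-37198507 and a 456 bp peak at chr15:37199318-37199773. The last 2 had midpoints 1.349 kb apart, the closest spacing among the 22 peaks, and the 622 bp peak lay in the long non-coding RNA gene Gm41303.
The second group lay in the body of Grhl2, beginning 75.97 kb beyond the first. Its peaks stood at 32.7%, 37.5% and 55.8% of the gene's length from the lower end. They were 493 bp wide at chr15:37275270-37275762, 330 bp at chr15:37281736-37282065 and 347 bp at chr15:37305615-37305961. None of the 6 peaks was nearer than 33.276 kb to an end of Grhl2, so the gene with the most peaks had none at its ends. Ncald, which also overlaps the window, was not the nearest gene of any of them.

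Grhl1, which acts on desmosomal genes in mouse skin, was the opposite case. It had 0 peaks in its body, which spans 45.2 kb, and both assigned peaks lay inside Taf1b, the gene of an RNA polymerase I factor subunit. These were a 342 bp peak at chr12:24536401-24536742 and a 248 bp peak at chr12:24539982-24540229, with midpoints 3.534 kb apart. They lay 35.66 and 32.126 kb below Grhl1, which by its plus strand is upstream. Their distances from the nearest end of Taf1b were 22.0 and 18.466 kb. Over the whole list, Grhl1 was the nearest gene of no peak.

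Ovol1, a zinc finger factor that restrains growth of epidermal progenitors in mice, lies among 5 other protein-coding genes within its window, more than any other of the 9. Its 1 peak, 356 bp at chr19:5567716-5568071, lay 7.318 kb above the gene and covered the RefSeq start of Ap5b1 at position 5568024. The nearest other peak was 120.336 kb away. This peak lay inside Ap5b1, 3.368 kb from the nearer end of that gene. By position it was thus closer to Ap5b1 than to Ovol1.

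Prdm1, which encodes Blimp1, a repressor with a role in the granular layer of mouse epidermis, had 1 peak of 403 bp at chr10:44565168-44565570. It lay 36.811 kb above the upper end of the annotated gene. The RefSeq start listed for Prdm1 is on the minus strand and inside the annotated extent, and from it the peak was 106.621 kb upstream. With the nearest other peak 183.776 kb away, it was the most isolated of the 22 peaks. Maf, whose human counterpart promotes differentiation of keratinocytes, had 1 peak of 338 bp at chr8:115721228-115721565. It lay 14.502 kb above the 3.6 kb gene, inside the long non-coding RNA gene Gm30712, and 49.854 kb from the nearest other peak. Both genes lay in windows with no other protein-coding gene.

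Around the limit of 50 kb, the farthest peaks counted had midpoints 40.424 kb from Grhl2, 36.811 kb from Prdm1 and 35.66 kb from Grhl1. The closest peaks not counted were 53.6 kb below Grhl1, 55.6 kb below Prdm1 and 64.4 kb above Maf. Beyond Klf4 and Grhl3 the next peaks were 169.9 kb below and 172.8 kb above the gene.

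**Figure D3:**
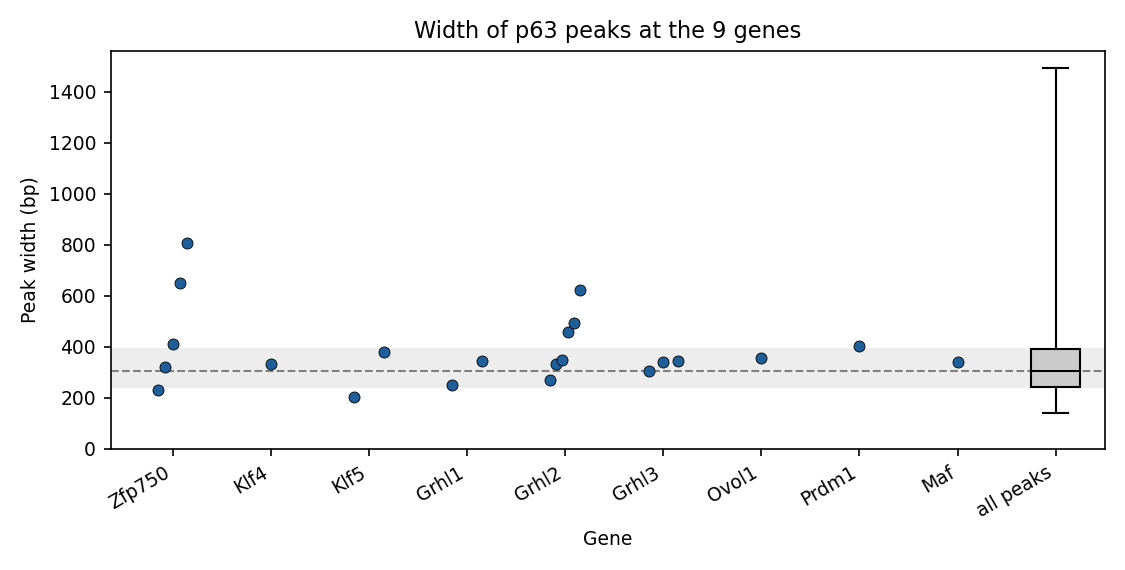
Width in bp of each p63 peak (points) at the 9 genes, with all 8451 peaks as a box (quartiles and median) whose whiskers reach the lowest and highest values. The band and dashed line repeat the quartiles and median of all peaks. Most points lie in the band between 242 and 392 bp, and the 3 widest, of 806, 650 and 622 bp, belong to Zfp750 and Grhl2.

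Peaks at the 9 genes were more often above than below the median width of the list. The 22 peaks were 201 to 806 bp wide with a median of 342 bp and quartiles of 321.8 and 409 bp. The whole list had a median of 305 bp and quartiles of 242 and 392 bp. At least as wide as the list median were 17 of 22 peaks (77.3%, interval 56.6 to 89.9), beside 50.0% of all peaks. At or above the upper quartile of the list, 392 bp, were 7 of 22 peaks (31.8%, interval 16.4 to 52.7), beside 25.1% of all peaks. Those 7 were 3 at Zfp750, 3 at Grhl2 and the peak of Prdm1. Narrower than the lower quartile were 2 of 22 (9.09%, interval 2.53 to 27.8), 1 at Zfp750 and 1 at Klf5, beside 24.9% of all peaks. These differences were not tested. Zfp750 alone spanned 229 to 806 bp, while the 3 peaks of Grhl3 stayed within 303 to 342 bp. Width grows with signal as well as with the extent of binding in ChIP-seq, and without heights the 2 cannot be told apart.

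**Figure D4:**
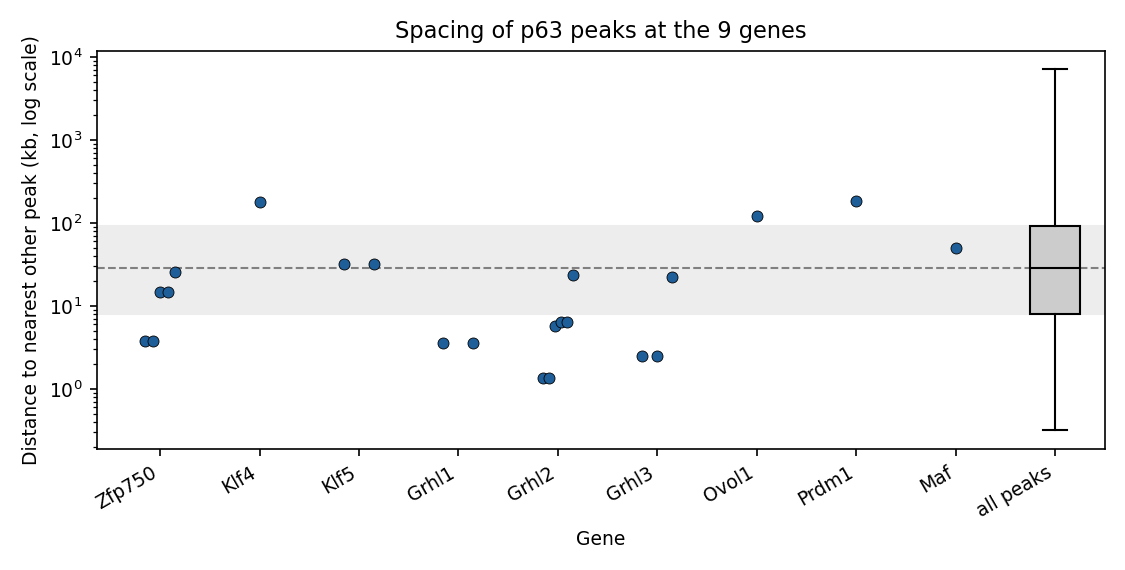
Distance in kb (log scale) from each p63 peak (points) at the 9 genes to the nearest other peak of the list, with all 8451 peaks as a box (quartiles and median) whose whiskers reach the lowest and highest values. The band and dashed line repeat the quartiles and median of all peaks. Points of Zfp750, Grhl1, Grhl2 and Grhl3 lie below the median of 28.41 kb and the others above it.

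Spacing differed between genes. By the rule, peaks of the same gene lie in its window, which limits how far apart they can be. At Zfp750, Grhl1, Grhl2 and Grhl3, each of the 16 peaks had another peak at most 25.572 kb away. At Klf4, Klf5, Ovol1, Prdm1 and Maf, the 6 peaks had their nearest neighbour 31.8 to 183.776 kb away. From a peak to its nearest neighbour in the list, the median distance was 10.6 kb for the 22 peaks and 28.41 kb for all peaks. Another peak lay within 10 kb of 11 of 22 peaks (50.0%, interval 30.7 to 69.3), beside 29.1% of all peaks. Those 11 made up 2 peaks at Zfp750, 2 at Grhl1, 5 at Grhl2 and 2 at Grhl3, so the share rests on 5 groups at 4 genes. Paired peaks are counted from both sides, the 22 peaks are not independent of each other, and the difference from the list was not tested. Between neighbouring peaks of the same gene, 13 distances ranged from 1.349 to 75.97 kb with a median of 14.82 kb.

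A feature that the choice of genes did not use was the presence of non-coding transcripts. Of 22 peaks, 4 (18.2%, interval 7.31 to 38.5) lay inside an annotated long non-coding RNA gene, beside 11.7% of the list. These were the peaks in Gm12506 at Klf4, Gm41303 at Grhl2, Gm30888 at Grhl3 and Gm30712 at Maf. The interval holds the share of the list. Exclusive proximity was also counted: 11 of 22 peaks (50.0%) were within 50 kb of the assigned gene and of no other protein-coding gene. All 6 peaks of Grhl2 were of this kind and none of those at Zfp750, Grhl1 or Ovol1. Of all peaks, 35.0% had exactly 1 protein-coding gene within that distance and 14.9% had none. The rule gave each of the 22 peaks at least 1 such gene, so the shares of 50.0% and 35.0% are not like for like.

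Families related to the 9 genes were counted in the same way. Among 40 paralogs from the Klf, CP2, Ovol, Prdm and Maf families, 19 (47.5%) had a peak inside or within 50 kb, near the 40.8% of all protein-coding genes. The Klf family had 9 of 15, with 3 peaks each at Klf15 and Klf7, 2 at Klf10 and 1 at each of the other 6 genes, Klf11 among them. Klf11 lies in the window of Grhl1, but its own peak was 46.891 kb away and was not one of the 2 assigned to Grhl1. The CP2 family, which is the nearest kin of the grainyhead-like genes, had 0 of 3.
The Prdm family had 4 of 14, with 6 peaks at Prdm15, 3 each at Prdm10 and Prdm16 and 2 at Prdm11. Prdm15 was the nearest gene of none of its 6, and Prdm16 of none of its 3. Both Ovol2 and Ovol3, the relatives of Ovol1, had peaks, 1 and 2 in number, but neither was the nearest gene of a peak. The Maf family had 4 of 6, among them Maff with 3 peaks and Mafa and Mafk with 1 each, and none of these 3 was the nearest gene of a peak.

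Other regulators of epidermal differentiation had a peak in 17 of 25 cases (68.0%), beside 40.8% of all protein-coding genes, and at least 3 peaks in 9 cases, beside 9.73% of all protein-coding genes. Their median was 2 peaks, against 0 for all protein-coding genes. Ppard, a nuclear receptor gene, had 7 peaks, Runx1 had 6 and the retinoid receptor gene Rxra had 5. Runx1 was the nearest gene of 6 peaks and Ppard of 2. Bodies in this list were long in part, with 224.6 kb for Runx1, which enlarges the window. Of 8 genes of cofactors known with ZNF750 or KLF4, 6 (75%) had a peak, beside 40.8% of all protein-coding genes. Ctbp2, a corepressor gene, had 4, the demethylase gene Kdm1a had 2, and Ctbp1 and Hdac1 had 1 each. Ctbp2 and Kdm1a were the nearest gene of 1 peak each, and Ctbp1 and Hdac1 of none. None of these shares was tested.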

How the data were processed

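The deposited file is the authors' list of p63 peaks, with 3 columns (chromosome, start, end). It is the result of an IDR analysis of both p63 libraries (MK1 and MK2), per the labels; IDR keeps peaks whose ranks agree between replicates. Chromatin was sheared by sonication and libraries were sequenced as 50 bp single-end reads, per the labels' protocols. Bowtie 1.1.1, SAMtools 1.1 and mm10 are listed in the submitters' processing notes. The peak caller is not given in the sources used, nor are thresholds. Fragment ends are inferred from single-end reads, which limits how exactly an edge marks a site.

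Starts were converted to 1-based positions. Gene extents came from RefSeq (GRCm38.p6), without 340 rows with ends below 3 Mb outside Y, which are positions on other scaffolds. Strand and start were available for 4 of the 9 genes, in the promoter table. Counts, widths and midpoint distances were computed with Python 3.11.15, numpy 2.4.6 and pandas 2.3.3, and Wilson intervals with statsmodels 0.14.6. The counting was checked on simulated data. No test was run, since the list has no values per sample. The 9 genes and the lists were chosen with earlier results of these data known, and the consensus comparison was chosen after seeing the data. Other genes were named if they host or are nearest to a peak, overlap a window, or are among up to 4 genes per list with the most peaks; some of these are not reported here. Alternatives changed the window, the overlap rule, a width minimum in place of a stricter threshold, and the assignment.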

Additional observations from a re-analysis of the deposited data

How the results depend on the processing

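The number of peaks at the 9 genes depended on the window. It was 22 within 50 kb, 10 within 10 kb, 14 within 25 kb and 31 within 100 kb. Genes with a peak numbered 6, 7 and 9 of 9 within 10, 25 and 100 kb, beside 21.4%, 29.8% and 55.3% of all protein-coding genes. Grhl1 and Prdm1 had none within 25 kb, and Maf joined them within 10 kb. Counting midpoints in place of any base left 22 peaks. The median number per gene, 2, became 1 within 10 kb, within 25 kb, with a width minimum and with nearest genes only. Keeping only peaks at least as wide as the list median left 17 peaks at 9 of 9 genes, beside 26.2% of all protein-coding genes. Keeping nearest genes only left 18 peaks at 7 of 9 genes, beside 21.8% by that rule without a distance limit. Nearest genes took all peaks from Grhl1 and Ovol1. The median width stayed between 340.5 and 344.5 bp over 3 windows and the nearest-gene rule. The median spacing was 21.57 kb within 25 kb, 22.99 kb within 100 kb and 14.3 kb between edges. No paired analysis was possible because both p63 libraries are merged in 1 list, so leaving out a library was not possible either. Read depth is unknown, so sites below the authors' threshold cannot be counted.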

Other observations

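Beyond 50 kb, some of the 9 genes were still the nearest protein-coding gene of further peaks. Counted at any distance, 32 peaks had one of the 9 genes as their nearest, 14 of them farther than 50 kb. By this count Grhl2 had 8 peaks, Klf5 and Maf 6 each, Klf4 and Zfp750 4 each, Grhl3 3 and Prdm1 1. Of all protein-coding genes, 21.8% were the nearest gene of at least 1 peak and 0.606% of at least 6. Maf and Klf4, with 1 peak each within 50 kb, thus moved up the order, and Zfp750, with 5, did not.

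The side on which such distant peaks lie is set in part by where the next gene is: a peak 169.9 kb below Klf4 was nearer to another gene. The 5 peaks of Maf were 64.4, 107.2, 147.8, 148.4 and 154.7 kb above the gene. The 4 of Klf5 were 78.4, 136.8, 152.8 and 265.9 kb above it, the last of them 828 bp wide at chr14:99578871-99579698. The 3 of Klf4 were 189.4, 404.1 and 482.1 kb above it, and the 2 of Grhl2 were 73.2 and 97.8 kb below it. The nearest-gene rule reaches as far as the gap to the next gene allows. The order of the genes by these counts is therefore not like for like with crowded loci, such as Zfp750 within Tbcd.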
